A study of Arabidopsis thaliana with 10 samples.

Results

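Jasmonate synthesis and VSP genes were followed by locus through 5 genotypes of Arabidopsis leaves. The set held 10 of the 33602 genes in the count table: the lipoxygenase genes LOX2, LOX3 and LOX4, the allene oxide synthase gene AOS, the allene oxide cyclase genes AOC1 and AOC2, the reductase gene OPR3, the conjugating enzyme gene JAR1, and the vegetative storage protein genes VSP1 and VSP2. All 10 were counted above the low-count filter and tested, as were 20334 genes in all. Leaf RNA came from soil-grown, untreated plants aged 4 weeks. The genotypes were wild type Col-0, the mutant pnet2_ab, and 3 lines with a transgene in pnet2_ab, so that all 3 share the mutant background. The NTL6 line carried 35S:NTL6-SRDX, the NTL9 line 35S:NTL9-SRDX and the NTL12 line 35S:NTL12-SRDX. Each genotype had 2 libraries here, although the series text speaks of triplicates. PNET2 is a family of inner nuclear membrane proteins. NTL proteins belong to the NAC transcription factors and are held in membranes, SRDX is a short repression domain, and 35S is a viral promoter active in most plant cells. The labels do not say how many independent plants or transformants stand behind a line, so the p-values describe only a spread of libraries, which may be technical. That spread was estimated over all 10 libraries and moderated across genes. It can therefore be narrower than the spread of the 2 groups compared for a given gene. One NTL12 library carries NTL2 in its genotype label and was grouped by its title.

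Jasmonate is made from linolenic acid of chloroplast membranes. Lipoxygenases oxidise the fatty acid, AOS and the AOC enzymes turn the product into the cyclic precursor OPDA, OPR3 reduces OPDA in the peroxisome, beta-oxidation shortens it to jasmonic acid, and JAR1 couples jasmonic acid to isoleucine. The isoleucine conjugate is the form that the receptor COI1 binds, which leads to breakdown of JAZ repressors and frees MYC transcription factors. Most synthesis genes are themselves induced by the hormone, and VSP1 and VSP2, which encode acid phosphatase-like storage proteins, are classic readouts of jasmonate and wounding in leaves.

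Libraries held 22.6 to 28.3 M counts, and the members had between 76 and 27624 counts in a library, so none was near the floor that a count of 0 allows (3 counts, 0.0978 to 0.150 CPM, counting error only). The PNET2 family loci, which the labels do not assign to the letters a and b, went both ways in pnet2_ab: AT1G28760 had 5.75 and 3.75 CPM in Col-0 and 19.0 and 16.7 CPM in the mutant, AT5G67610 had 15.5 and 17.7 against 9.30 and 8.07 CPM, and AT3G49840 had 6.40 and 9.19 against 3.82 and 5.46 CPM. Counts of the NTL6 gene were 18.1 and 19.7 CPM in the NTL6 line and 23.8 and 27.1 CPM in pnet2_ab, and counts of the NTL9 gene were 27.7 and 22.9 CPM in the NTL9 line and 26.4 and 25.5 CPM in pnet2_ab. Gene counts thus showed no excess of either transcript in its line. The NTL6 gene was highest in the NTL12 line, at 36.5 and 29.5 CPM, and no locus was matched to NTL12, so each line is known by its label. All 5 leaf mesophyll markers were present in every library and summed to 43976 to 75661 CPM. Sums are not comparable between marker lists, because this list includes CAB1, the gene with the most counts in every library.

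The letters upstream of 6 members are shown, chosen for these contrasts: AOS and AOC2 fell in the mutant, AOC1 and VSP1 rose, VSP2 fell, and LOX4 was highest in the NTL12 line. OPR3, which passed the threshold in 8 of 10 comparisons, is not shown. Each run is the 250 bases before the RefSeq start of the gene, 5′ to 3′ on the gene's strand, from RefSeq TAIR10.1. Capitals mark a G-box (CACGTG) or a T/G-box (AACGTG, or CACGTT when read on the other strand), the letters that MYC factors are known to bind. The 6 include every member that holds such a motif, so motifs are more frequent in the runs shown than in the whole set.
AOS, chr5:17099596-17099845, minus strand: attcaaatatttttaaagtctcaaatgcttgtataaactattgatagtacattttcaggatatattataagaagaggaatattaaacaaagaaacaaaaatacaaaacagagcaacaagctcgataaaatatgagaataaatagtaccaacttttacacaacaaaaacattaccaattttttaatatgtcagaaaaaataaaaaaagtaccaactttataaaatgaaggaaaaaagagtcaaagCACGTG
AOC1, chr3:9403529-9403778, plus strand: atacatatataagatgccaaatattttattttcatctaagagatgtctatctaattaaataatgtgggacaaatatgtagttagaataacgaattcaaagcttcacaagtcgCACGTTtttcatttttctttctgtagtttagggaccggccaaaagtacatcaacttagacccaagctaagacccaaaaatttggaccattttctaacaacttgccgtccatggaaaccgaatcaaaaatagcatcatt
AOC2, chr3:9406419-9406668, plus strand: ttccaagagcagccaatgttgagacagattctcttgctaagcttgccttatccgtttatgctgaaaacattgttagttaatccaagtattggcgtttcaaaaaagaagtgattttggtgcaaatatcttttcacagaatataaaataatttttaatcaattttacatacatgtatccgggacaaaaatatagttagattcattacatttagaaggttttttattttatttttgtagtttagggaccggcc
VSP1, chr5:8509202-8509451, minus strand: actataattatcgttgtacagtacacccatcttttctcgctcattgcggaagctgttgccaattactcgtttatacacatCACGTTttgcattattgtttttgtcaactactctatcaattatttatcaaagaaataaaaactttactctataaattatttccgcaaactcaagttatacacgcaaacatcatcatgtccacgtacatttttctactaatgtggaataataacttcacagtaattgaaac
VSP2, chr5:8502225-8502474, minus strand: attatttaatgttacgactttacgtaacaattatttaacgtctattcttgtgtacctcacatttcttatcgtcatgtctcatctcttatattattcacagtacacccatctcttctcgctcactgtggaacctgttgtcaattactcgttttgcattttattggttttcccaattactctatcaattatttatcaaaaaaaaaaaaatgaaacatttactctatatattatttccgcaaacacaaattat
LOX4, chr1:27308263-27308512, plus strand: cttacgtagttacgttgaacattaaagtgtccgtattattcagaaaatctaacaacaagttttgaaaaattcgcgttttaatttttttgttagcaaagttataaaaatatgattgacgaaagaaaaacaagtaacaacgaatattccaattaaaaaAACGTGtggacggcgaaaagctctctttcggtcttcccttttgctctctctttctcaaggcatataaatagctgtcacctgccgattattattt

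Searched on both strands, the G-box was found in 1 of 10 members, AOS, where its first base lay 6 bases before the start. It was found in 6.49% of 27443 promoter windows of the same length. The T/G-box was found in 3 of 10 members, LOX4 (94 bases before the start), AOC1 (138 bases) and VSP1 (170 bases), and in 7.54% of all windows. Either motif was found in 4 of 10 members and 13.3% of all windows, and the 2 motifs do not overlap in these runs. AOC2 and VSP2 held neither, while their neighbours AOC1 and VSP1 held a T/G-box each. Windows and distances run from the RefSeq start, which can lie upstream of the gene's start in the authors' table. For AOS, on the minus strand, the window's near end was 17099596 and the gene in the authors' table ended at 17099395. For VSP2 these were 8502225 and 8502224. Distances to the authors' starts are therefore not comparable between genes. These are matches of letters in a short window and not tested sites.

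AOC1 and AOC2 lie next to each other on chromosome 3 with 1622 bases between them and no gene in that gap. VSP2 and VSP1 lie on chromosome 5 with 5365 bases and 1 gene between them. The coding sequences of AOC1 and AOC2 were 90.29% identical, those of VSP1 and VSP2 90.44%, and those of LOX3 and LOX4 81.07%. Untranslated parts were not compared, so identical coding runs do not bound how far reads can fit both copies. The longest identical coding runs of the AOC and VSP pairs are shown in lower case, in RefSeq TAIR10.1.
AOC1, chr3:9404926-9404972, plus strand: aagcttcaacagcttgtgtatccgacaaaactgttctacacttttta
VSP1, chr5:8508594-8508647, minus strand: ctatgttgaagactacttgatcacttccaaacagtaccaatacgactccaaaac

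The same 47 bases stand in AOC2 and the same 54 in VSP2, while LOX3 and LOX4 shared at most 24 bases in a row. Of 764 windows of 50 bases in the VSP1 coding sequence, 5 (0.654%) were also in VSP2, and none of 716 AOC1 windows was in AOC2. How reads that fit both copies were counted is not given in the sources used here, so values of single pair members carry that uncertainty. No other gene of the table overlapped a member. In the authors' table the genes lie on TAIR10 at chromosome 3, 16525410 to 16529352 (LOX2, AT3G45140), 9403883 to 9405250 (AOC1, AT3G25760) and 9406873 to 9407955 (AOC2, AT3G25770), at chromosome 1, 5977411 to 5981480 (LOX3, AT1G17420) and 27308515 to 27312754 (LOX4, AT1G72520), at chromosome 5, 17097595 to 17099395 (AOS, AT5G42650), 8507590 to 8508957 (VSP1, AT5G24780) and 8500476 to 8502224 (VSP2, AT5G24770), and at chromosome 2, 2359114 to 2362302 (OPR3, AT2G06050) and 19033741 to 19036659 (JAR1, AT2G46370).

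Levels per length differed widely between the genes. Mean FPKM over the 10 libraries was 301 for LOX2, 211 for AOC2, 120 for AOS, 47.8 for AOC1, 24.1 for OPR3, 24.0 for JAR1, 16.5 for VSP2, 9.60 for VSP1, 6.66 for LOX3 and 2.24 for LOX4. LOX2, which supplies most of the jasmonate of wounded leaves, was thus the highest of the lipoxygenases by far, and AOC2 the higher of its pair. By CPM, LOX2 stood at percentile 99.5 of the tested genes and LOX4 at percentile 33.9.

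Against Col-0, the mutant pnet2_ab had lower AOS, AOC2, VSP2 and LOX2 and higher VSP1, AOC1 and OPR3. Of 10 members 3 rose and 4 fell, where 34.0% of all tested genes passed the threshold, 17.2% as higher and 16.8% as lower (edgeR's quasi-likelihood test, Benjamini-Hochberg adjusted p under 0.05 over all tested genes, 2 libraries per group). The median log2 fold change of the members was -0.24 and that of all tested genes 0.04. The members did not move one way: in the AOC and VSP pairs, the copies changed in opposite directions.

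**Figure D1:**
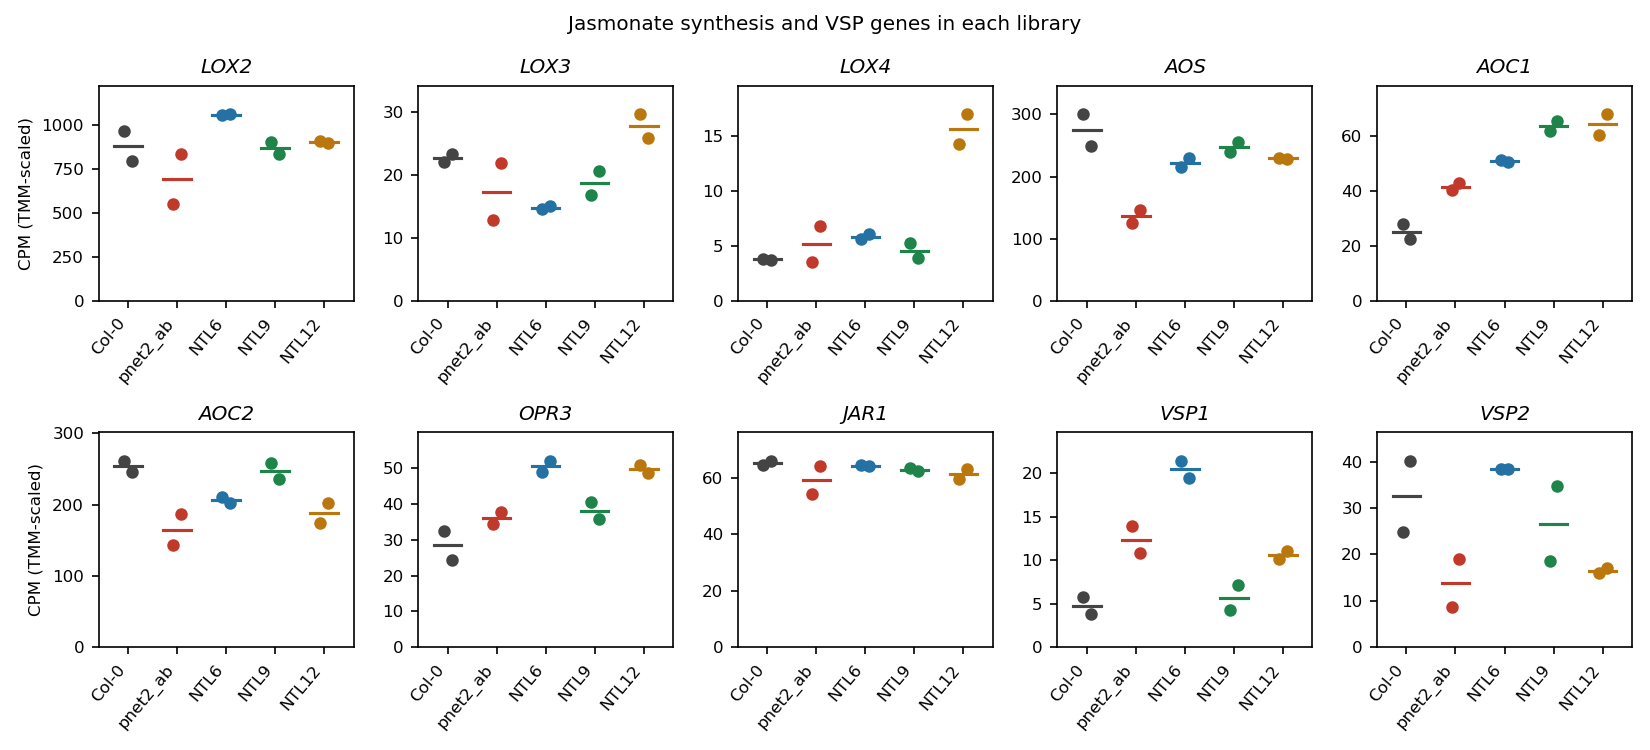
CPM scaled by TMM (y axis, from 0, a scale of its own in each panel) of each of the 10 genes in the 2 libraries of each genotype (x axis); points are libraries and bars are means of 2. AOS is lowest in both pnet2_ab libraries, AOC1 is lowest in both Col-0 libraries, LOX4 is highest in both NTL12 libraries, and JAR1 is nearly level.

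At the entry of the pathway, LOX2 had 964 and 790 CPM in Col-0 and 548 and 832 CPM in pnet2_ab. It had 1053 and 1059 CPM in the NTL6 line, 900 and 831 CPM in the NTL9 line and 907 and 893 CPM in the NTL12 line. The pnet2_ab libraries spread widely and 1 of them lay within the Col-0 range. LOX2 fell by 0.35 on the log2 scale in pnet2_ab (SE 0.12, adjusted p = 0.0286). Leaving out the first Col-0 library (-0.21) or the first pnet2_ab library (-0.08) ended that call, as did DESeq2 and limma on FPKM, and the value was -0.68 without the second pnet2_ab library. Its adjusted p ran from 1.61e-06 to 0.598 over all 19 alternatives. LOX2 rose by 0.61 (SE 0.12, adjusted p = 0.000821) in the NTL6 line against pnet2_ab. No alternative ended this call, although the value was 0.35 and 0.95 when the first and the second pnet2_ab library were left out. Against pnet2_ab the NTL9 line was at 0.33 (adjusted p = 0.0532) and the NTL12 line at 0.38 (adjusted p = 0.0562), both short of the threshold. In 5 and 8 of the 19 alternatives they passed it, with values of 0.66 and 0.72 when the second pnet2_ab library was left out and near the main values otherwise, and over the alternatives adjusted p ran from 9.45e-06 to 0.747 and from 5.14e-07 to 0.618.

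LOX3 and LOX4 encode lipoxygenases of the same type that act together in flower fertility. LOX3 had 22.0 and 23.3 CPM in Col-0, 12.8 and 21.8 CPM in pnet2_ab, 14.5 and 15.0 CPM in the NTL6 line, 16.8 and 20.5 CPM in the NTL9 line, and 29.6 and 25.7 CPM in the NTL12 line. LOX4 had 3.80 and 3.75 CPM in Col-0, 3.49 and 6.81 CPM in pnet2_ab, 5.63 and 6.06 CPM in the NTL6 line, 5.26 and 3.86 CPM in the NTL9 line, and 14.3 and 17.0 CPM in the NTL12 line. Both genes were highest in the NTL12 line, whose libraries did not overlap those of any other genotype. LOX4 rose by 1.61 (SE 0.25, adjusted p = 0.000279) in the NTL12 line against pnet2_ab and by 2.05 (SE 0.26, adjusted p = 2.89e-06) against Col-0. It was also higher than in the NTL6 line by 1.42 (adjusted p = 0.000301) and than in the NTL9 line by 1.77 (adjusted p = 3.85e-05). No alternative ended these 4 calls. Its other neighbours in order, Col-0, NTL9, pnet2_ab and NTL6 from low to high, did not differ beyond their spread (adjusted p = 0.586 to 0.731).

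LOX3 rose by 0.68 (SE 0.18, adjusted p = 0.0193) in the NTL12 line against pnet2_ab. This was lost without the first pnet2_ab library (0.34) or either NTL12 library (0.58 and 0.78) and was 1.11 without the second pnet2_ab library, with adjusted p from 6.69e-05 to 0.291 over the alternatives. Here and below, libraries named with a lost call are only the left-out libraries that ended it. Other settings ended some of the same calls, and 5 of the 19 alternatives ended this LOX3 call. LOX3 was lower in the NTL6 line than in the NTL12 line by 0.91 (adjusted p = 0.000862, kept in every alternative). In pnet2_ab it was at -0.40 against Col-0 (adjusted p = 0.0926), and at -0.82 without the second pnet2_ab library, where it passed the threshold, with adjusted p from 0.000536 to 0.849. That library held 21.8 CPM and the other 12.8 CPM. LOX4 in pnet2_ab was at 0.44 (adjusted p = 0.237) and reached 0.85 when the first pnet2_ab library was left out, with adjusted p from 0.0169 to 0.818.

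AOS, the single enzyme that commits the oxidised fatty acid to jasmonate, gave the clearest change in the mutant. It had 301 and 250 CPM in Col-0 and 125 and 147 CPM in pnet2_ab. It had 215 and 230 CPM in the NTL6 line, 239 and 255 CPM in the NTL9 line and 230 and 229 CPM in the NTL12 line. All 8 libraries of the other genotypes lay above both pnet2_ab libraries. AOS fell by 1.02 (SE 0.09, 95% interval -1.20 to -0.83, adjusted p = 8.26e-09) in pnet2_ab against Col-0. Against pnet2_ab it rose by 0.71 (SE 0.09, adjusted p = 4.46e-06) in the NTL6 line, by 0.86 (SE 0.09, adjusted p = 2.7e-07) in the NTL9 line and by 0.76 (SE 0.09, adjusted p = 1.14e-05) in the NTL12 line. These 4 calls held in every alternative. The lines against pnet2_ab and pnet2_ab against Col-0 share the same pnet2_ab libraries, so the values are set side by side only.

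Set against Col-0, AOS was at -0.31 (adjusted p = 0.0126) in the NTL6 line, -0.16 (adjusted p = 0.269) in the NTL9 line and -0.26 (adjusted p = 0.0258) in the NTL12 line. The NTL6 call was lost without the first Col-0 library (-0.18) or the first NTL6 library (-0.26), with adjusted p from 0.000576 to 0.223. The NTL12 call was lost without the first Col-0 library (-0.13) or either NTL12 library (-0.27 and -0.26) and was -0.40 without the second Col-0 library, with adjusted p from 0.00339 to 0.349. In order the lines did not differ from one another beyond their spread (adjusted p = 0.477 to 0.797 between neighbours).

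The allene oxide cyclases make OPDA, and the copies differed. AOC1 had 27.8 and 22.4 CPM in Col-0, 40.4 and 42.9 CPM in pnet2_ab, 51.4 and 50.5 CPM in the NTL6 line, 61.7 and 65.5 CPM in the NTL9 line, and 60.6 and 68.0 CPM in the NTL12 line. It was lowest in Col-0 and higher in both libraries of every other genotype. AOC1 rose by 0.73 (SE 0.11, adjusted p = 1.24e-05) in pnet2_ab against Col-0. Against Col-0 it was higher by 1.02 (SE 0.11, adjusted p = 3.51e-07) in the NTL6 line, by 1.34 (SE 0.11, adjusted p = 1.42e-08) in the NTL9 line and by 1.36 (SE 0.11, adjusted p = 3.21e-09) in the NTL12 line. Against pnet2_ab it rose further, by 0.61 (adjusted p = 0.000108) in the NTL9 line and by 0.63 (adjusted p = 0.000403) in the NTL12 line. These 6 calls held in every alternative. In the NTL6 line AOC1 was at 0.29 against pnet2_ab (adjusted p = 0.0523, from 0.0314 to 0.225 over the alternatives).

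AOC2 had 262 and 246 CPM in Col-0, 143 and 186 CPM in pnet2_ab, 211 and 203 CPM in the NTL6 line, 258 and 236 CPM in the NTL9 line, and 175 and 203 CPM in the NTL12 line. Its mean was lowest in pnet2_ab and highest in Col-0, the order that the AOS means also showed at both ends. The AOC2 libraries of pnet2_ab and the NTL12 line overlapped, as did those of Col-0 and the NTL9 line. AOC2 fell by 0.63 (SE 0.10, adjusted p = 2.74e-05) in pnet2_ab, and in the NTL9 line it rose against pnet2_ab by 0.59 (SE 0.10, adjusted p = 0.000109), both kept in every alternative. In the NTL6 line it was higher than in pnet2_ab by 0.33 (adjusted p = 0.0195), a call lost without the first pnet2_ab library (0.15) or either NTL6 library (0.30 and 0.36) and at 0.54 without the second pnet2_ab library, with adjusted p from 0.00025 to 0.343. In the NTL12 line it was at 0.20 against pnet2_ab (adjusted p = 0.266) and 0.40 without the second pnet2_ab library (adjusted p from 0.0142 to 0.961). Against Col-0, AOC2 was lower by 0.43 in the NTL12 line (adjusted p = 0.00175; -0.33 and short of the threshold without the first NTL12 library, adjusted p from 3.51e-07 to 0.0545). The NTL9 line was at -0.04 against Col-0 (95% interval -0.24 to 0.16, adjusted p = 0.848).

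OPR3, the reductase that commits OPDA to jasmonic acid, had 32.3 and 24.4 CPM in Col-0, 34.4 and 37.7 CPM in pnet2_ab, 48.8 and 52.0 CPM in the NTL6 line, 40.3 and 35.8 CPM in the NTL9 line, and 50.6 and 48.5 CPM in the NTL12 line. Col-0 was lowest and the NTL6 and NTL12 lines were highest, without overlap with the rest. Against Col-0, OPR3 rose by 0.83 (SE 0.12, adjusted p = 1.56e-05) in the NTL6 line and by 0.81 (SE 0.12, adjusted p = 1.44e-05) in the NTL12 line, both kept in every alternative. The rise of 0.35 in pnet2_ab (SE 0.12, adjusted p = 0.0264) was lost without the second Col-0 library (0.14) or the second pnet2_ab library (0.28) and was 0.55 without the first Col-0 library, with adjusted p from 0.00276 to 0.450. The rise of 0.43 in the NTL9 line against Col-0 (adjusted p = 0.019) was lost without the second Col-0 library (0.23) or the first NTL9 library (0.33), with adjusted p from 0.0025 to 0.316. Against pnet2_ab the NTL6 line was higher by 0.48 (SE 0.11, adjusted p = 0.00445; 0.44 without the second NTL6 library, where adjusted p reached its highest value of 0.0515, the lowest being 0.000151). The NTL12 line was higher than pnet2_ab by 0.46 (adjusted p = 0.0156), a call lost without the first pnet2_ab library (0.39) or either NTL12 library (0.43 and 0.49), with adjusted p from 0.000783 to 0.136.

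JAR1, the last step to the active hormone, was the most even of the 10. Its levels were 64.6 and 66.1 CPM in Col-0, 54.3 and 64.3 CPM in pnet2_ab, 64.5 and 64.2 CPM in the NTL6 line, 63.5 and 62.4 CPM in the NTL9 line, and 59.7 and 63.0 CPM in the NTL12 line. JAR1 passed the threshold in 0 of 10 comparisons by edgeR's quasi-likelihood test, where its smallest adjusted p was 0.241 and its smallest unadjusted p 0.125. Its largest log2 change was -0.14, in pnet2_ab against Col-0 (95% interval -0.33 to 0.04). No alternative, DESeq2 and limma among them, brought it past the threshold.

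The VSP genes, the readouts at the end of the pathway, changed in opposite directions in the mutant. VSP1 had 5.80 and 3.79 CPM in Col-0, 13.9 and 10.8 CPM in pnet2_ab, 21.5 and 19.5 CPM in the NTL6 line, 4.25 and 7.15 CPM in the NTL9 line, and 10.2 and 11.1 CPM in the NTL12 line. Col-0 and the NTL9 line overlapped at the low end and the NTL6 line stood highest. VSP1 rose by 1.37 (SE 0.23, adjusted p = 6.18e-05) in pnet2_ab against Col-0. In the NTL9 line it fell by 1.12 (SE 0.22, adjusted p = 0.00069) against pnet2_ab. It was higher in the NTL6 line by 2.10 (SE 0.23, adjusted p = 5.9e-07) and in the NTL12 line by 1.16 (SE 0.23, adjusted p = 0.000527) than in Col-0. These 4 calls held in every alternative, as did the difference of 1.84 between the NTL6 and NTL9 lines (adjusted p = 1.26e-05). The NTL6 line against pnet2_ab was at 0.73 (adjusted p = 0.0165), lost without the second pnet2_ab library (0.56) or the first NTL6 library (0.65), with adjusted p from 0.000609 to 0.142. The NTL12 line was at -0.22 against pnet2_ab (95% interval -0.66 to 0.22, adjusted p = 0.639).

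VSP2 had 24.9 and 40.2 CPM in Col-0, 8.78 and 19.0 CPM in pnet2_ab, 38.4 and 38.4 CPM in the NTL6 line, 18.5 and 34.8 CPM in the NTL9 line, and 15.9 and 17.1 CPM in the NTL12 line. The 2 libraries of Col-0, pnet2_ab and the NTL9 line lay far apart, those of the NTL6 and NTL12 lines close together, and the NTL9 range overlapped those of Col-0 and pnet2_ab. VSP2 fell by 1.25 (SE 0.27, adjusted p = 0.000955) in pnet2_ab, a change of -0.78 and -1.89 without the first and the second pnet2_ab library, past the threshold in every alternative. It rose by 1.48 (SE 0.27, adjusted p = 0.000387) in the NTL6 line against pnet2_ab, or by 2.13 without the second pnet2_ab library, also past the threshold in every alternative. In the NTL9 line the rise of 0.95 (adjusted p = 0.0125) was lost without the first pnet2_ab library (0.49) or the second NTL9 library (0.43) and was 1.60 without the second pnet2_ab library, with adjusted p from 4.01e-11 to 0.351. In the NTL12 line it was at 0.26 (adjusted p = 0.669), and 0.91 without the second pnet2_ab library (adjusted p from 0.0492 to 0.869). Against Col-0 the NTL12 line was lower by 0.98 (adjusted p = 0.00711), lost without the second Col-0 library (-0.61) or the first NTL12 library (-0.94), with adjusted p from 3.09e-12 to 0.175.

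**Figure D2:**
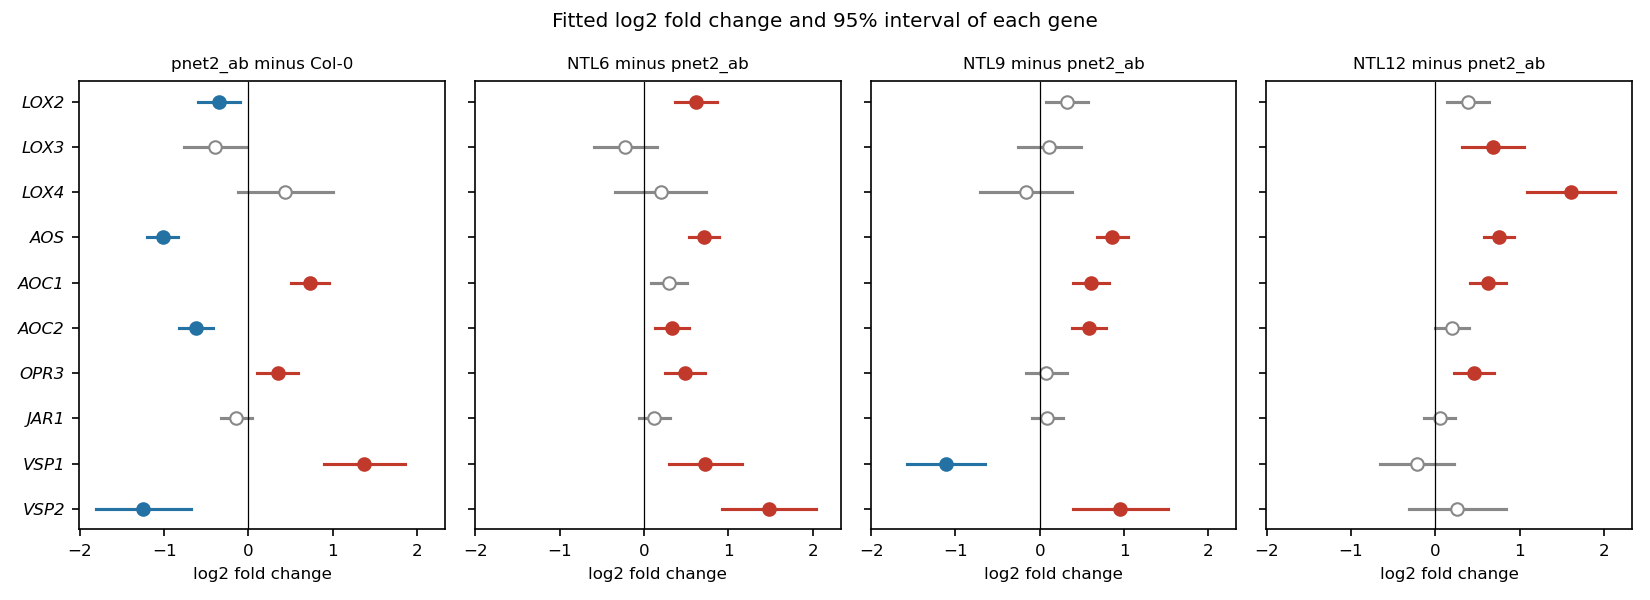
Fitted log2 fold change (x axis) of each gene (y axis) in pnet2_ab against Col-0 and in each line against pnet2_ab; points are estimates from 2 libraries per group, lines are 95% intervals, and filled red or blue points passed an adjusted p of 0.05 as higher or lower. AOS is at -1.02 in the mutant and at 0.71 to 0.86 in the lines, while VSP1 is at 1.37 in the mutant and -1.12 in the NTL9 line; the 4 panels share the pnet2_ab libraries.

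Counted over the set, the lines rose above pnet2_ab in most of what passed the threshold. In the NTL6 line 6 of 10 members were higher than in pnet2_ab and none was lower, where 18.1% of all tested genes passed, 8.75% as higher and 9.35% as lower. In the NTL9 line 4 were higher and 1, VSP1, was lower, against 22.3% of all tested genes (11.6% higher and 10.8% lower). In the NTL12 line 5 were higher and none lower, against 6.95% of all tested genes (3.11% higher and 3.84% lower). That count was 3 without the first pnet2_ab library or either NTL12 library and 8 without the second pnet2_ab library. The members' median log2 fold change was 0.41, 0.22 and 0.42 in the NTL6, NTL9 and NTL12 lines, and that of all tested genes lay between -0.01 and 0.00. For the 0 members lower in the NTL6 and NTL12 lines, edgeR's quasi-likelihood test also gave 0 at an unadjusted p under 0.05, as did DESeq2 and limma at an adjusted p under 0.05. Without the first pnet2_ab library, however, LOX3 was called lower in the NTL6 line (-0.57, adjusted p = 0.0186, up to 0.649 over the alternatives).

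AOS passed as higher in all 3 lines. Beside it, LOX2, AOC2, OPR3, VSP1 and VSP2 passed as higher in the NTL6 line, AOC1, AOC2 and VSP2 in the NTL9 line, and LOX3, LOX4, AOC1 and OPR3 in the NTL12 line. Tested directly, the NTL6 line exceeded the NTL9 line in 2 members, OPR3 and VSP1, and was lower in none, where 6.06% of all genes passed, 1.95% as higher and 4.11% as lower. At an unadjusted p under 0.05 edgeR's quasi-likelihood test had 2 members lower, AOC1 (-0.32) and AOC2 (-0.25), and DESeq2 and limma called 0 lower after adjustment. The count of 2 became 4 without either pnet2_ab library and 1 without either NTL6 library or either NTL12 library. The OPR3 difference of 0.41 (adjusted p = 0.0365) was lost without either NTL6 library (0.45 and 0.36), the second NTL9 library (0.31) or either NTL12 library (0.41 and 0.41), with adjusted p from 0.00539 to 0.348. The NTL6 line exceeded the NTL12 line in VSP1 by 0.94 (adjusted p = 0.00275) and VSP2 by 1.22 (adjusted p = 0.00221), and was lower in LOX3, LOX4 and AOC1, where 17.5% of all genes passed, 8.99% as higher and 8.46% as lower. The AOC1 difference there was -0.34 (adjusted p = 0.0236), lost without either NTL6 library (-0.35 and -0.32) or the second NTL12 library (-0.25), with adjusted p from 0.00382 to 0.234. The VSP2 difference ended only under DESeq2, at adjusted p = 0.0639, the highest of its alternatives, which began at 2.61e-18.

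The NTL9 line exceeded the NTL12 line in AOC2 by 0.39 and was lower in LOX3 (-0.57), LOX4 (-1.77), OPR3 (-0.38) and VSP1 (-0.90), where 16.3% of all genes passed, 9.22% as higher and 7.07% as lower. Only the LOX4 difference held in every alternative, and the count of 5 became 3 without the first NTL9 library and 2 without either NTL12 library. AOC2 (adjusted p = 0.00771, from 1.06e-05 to 0.146) was lost without the first NTL9 library (0.33) or the first NTL12 library (0.29). LOX3 (0.0288, from 0.000935 to 0.244) was lost without the first NTL9 library (-0.42) or either NTL12 library (-0.46 and -0.67). OPR3 (0.0249, from 0.00542 to 0.214) was lost without the second NTL9 library (-0.30) or either NTL12 library (-0.35 and -0.41). VSP1 (0.00749, from 6.69e-05 to 0.157) was lost without the first NTL9 library (-0.57) or the second NTL12 library (-0.84).

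Each line was also set against Col-0. In the NTL9 line 2 members, AOC1 and OPR3, were higher and none was lower, where 13.7% of all genes passed, 6.29% as higher and 7.43% as lower. In the NTL6 line 3 were higher (AOC1, OPR3 and VSP1) and 3 lower (LOX3, AOS and AOC2), where 23.5% passed, 10.9% as higher and 12.6% as lower. In the NTL12 line 4 were higher (LOX4, AOC1, OPR3 and VSP1) and 3 lower (AOS, AOC2 and VSP2), where 30.5% passed, 14.9% as higher and 15.6% as lower. For the 0 members lower in the NTL9 line, edgeR's quasi-likelihood test gave 0 also at an unadjusted p under 0.05, and DESeq2 and limma called 0 after adjustment. These counts of 2, 6 and 7 members became 1 without the second Col-0 or the first NTL9 library, 3 without the first NTL6 library and 4 without the first NTL12 library. In the NTL6 line against Col-0, LOX3 fell by 0.62 (adjusted p = 0.0145) and AOC2 by 0.29 (adjusted p = 0.0318). LOX3 was lost without the second Col-0 library (-0.60) or either NTL6 library (-0.60 and -0.64), with adjusted p from 0.000221 to 0.0811. AOC2 was lost without the first Col-0 library (-0.26) or either NTL6 library (-0.32 and -0.26), with adjusted p from 0.00119 to 0.157. Of the 50 calls made over the 10 members and 10 comparisons, 28 held in every alternative. DESeq2 ended 4 of the 50 and limma on log2(FPKM + 1) ended 16. The left-out libraries named above do not cover these settings. Of the 19 alternatives, 5 ended the calls of OPR3 in pnet2_ab against Col-0 and of AOC2 in the NTL6 line against pnet2_ab. As many ended that of VSP2 in the NTL12 line against Col-0, and 6 ended that of VSP2 in the NTL9 line against pnet2_ab.

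Balance within the paralog pairs also differed between genotypes. AOC1 held 9.44% and 8.19% of the pair's summed FPKM in Col-0, and between 18.4% and 25.4% in the 8 other libraries. VSP1 held 24.3% and 11.5% of its pair in Col-0 and 68.6% and 43.9% in pnet2_ab. The NTL12 line had 46.9% and 47.3%, the NTL6 line 43.5% and 41.1%, and the NTL9 line 24.0% and 22.1%. The NTL9 line thus lay within the Col-0 range and the other genotypes above it. LOX4 held 14.3% and 13.5% of LOX3 plus LOX4 in Col-0 and 31.9% and 39.1% in the NTL12 line, with the others between.

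With the counts of a pair added, a step chosen after the data were seen, AOC1 plus AOC2 fell by 0.44 in pnet2_ab against Col-0 (SE 0.09, adjusted p = 0.000586) and VSP1 plus VSP2 fell by 0.52 (SE 0.19, adjusted p = 0.0455). Against pnet2_ab the AOC sum rose by 0.59 in the NTL9 line (adjusted p = 3.92e-05) and by 0.32 in the NTL6 line (adjusted p = 0.0137), and was at 0.30 in the NTL12 line (adjusted p = 0.0501). The VSP sum rose by 1.17 in the NTL6 line (adjusted p = 0.000136) and was at 0.31 in the NTL9 line (adjusted p = 0.300) and 0.05 in the NTL12 line (adjusted p = 0.925). The LOX3 plus LOX4 sum rose by 0.95 in the NTL12 line (adjusted p = 0.000713) and by 0.71 there against Col-0 (adjusted p = 0.00197). These sums were fitted in the main setting only, with no alternative tried. The VSP sums lay close at their nearest, at 30.7 CPM in the first Col-0 library and 29.8 CPM in the second pnet2_ab library.

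**Figure D3:**
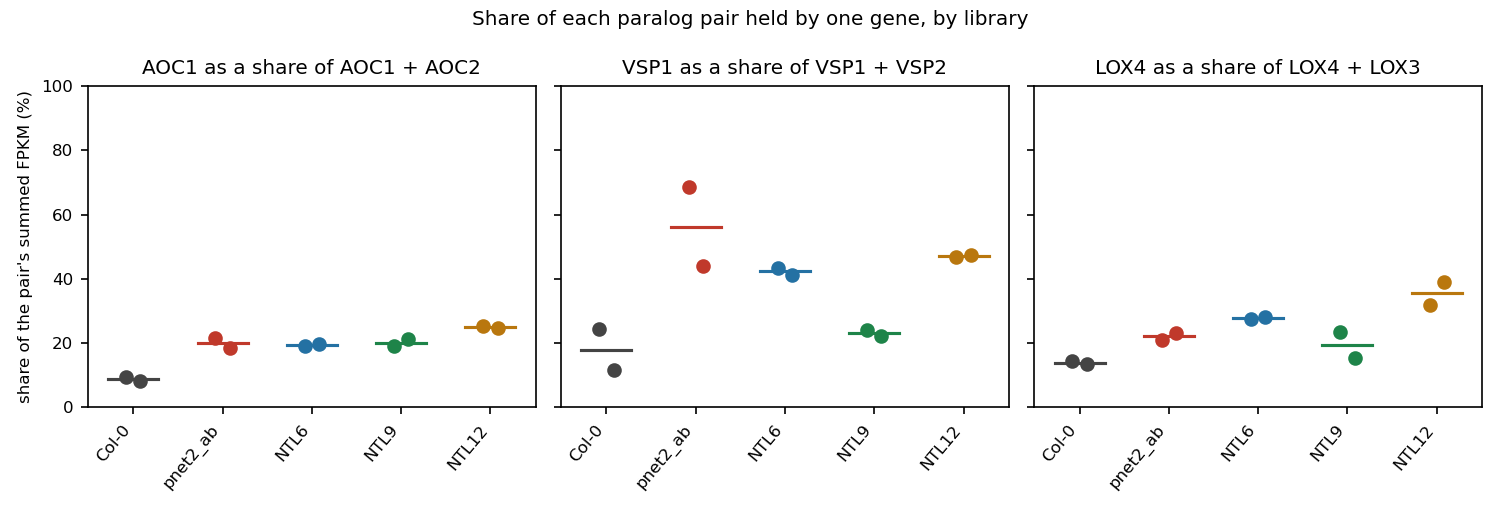
Share (y axis, percent of the pair's summed FPKM) of AOC1, VSP1 and LOX4 in its pair in each library of each genotype (x axis); points are libraries and bars are means of 2. AOC1 is at 8.19% and 9.44% in Col-0 and at 18.4% or more elsewhere, and VSP1 is at 22.1% to 24.0% in the NTL9 line beside 11.5% to 24.3% in Col-0.

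Over the 10 libraries, AOS and AOC2 had the highest Pearson correlation of log2 CPM among the members (r = 0.83), followed by JAR1 with VSP2 (0.80) and AOC1 with OPR3 (0.78). AOC2 and VSP1 were lowest, at -0.64, and AOC1 with AOC2 was at -0.20 and VSP1 with VSP2 at -0.06. The points are libraries of 5 genotypes that share their scaling, so these are descriptions with no test. Among 6844 genes with a symbol and a mean of at least 5 CPM, the most alike in pattern were MLP28 for AOS (0.98), RBOHD for OPR3 (0.98), IQD24 for AOC2 (0.96), ABCG41 for AOC1 (0.96), FAMT for LOX2 (0.94), PUP7 for LOX4 (0.92), SMP2 for VSP1 (0.92), TEX1 for VSP2 (0.91), COL3 for LOX3 (0.91) and GLP10 for JAR1 (0.90).

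The rest of the pathway was read from 69 further jasmonate genes in 6 lists, of which 62 were tested. In pnet2_ab against Col-0, 21 rose and 10 fell, and their median log2 fold change was 0.13, beside 0.04 for all tested genes. Against pnet2_ab, 7 rose and 10 fell in the NTL6 line (median -0.09), 9 rose and 18 fell in the NTL9 line (median -0.13), and 9 rose and 4 fell in the NTL12 line (median 0.06). As shares of the 62 these calls were 50.0%, 27.4%, 43.5% and 21.0%, beside 34.0%, 18.1%, 22.3% and 6.95% of all tested genes. In pnet2_ab the share by list was 28.6% for lipid supply, 41.7% for cyclases, reductases and beta-oxidation, 80.0% for conjugation and turnover, 20.0% for regulators, 45.5% for JAZ repressors and 75.0% for other response genes, so lipid supply and regulators lay below the share of all genes. The NTL6 count of 17 became 10 without the second pnet2_ab library or the first NTL6 library, and the NTL12 count of 13 became 8 and 6 without the first and the second NTL12 library.

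Upstream, 2 of 7 tested genes of lipid supply and other lipoxygenases fell in pnet2_ab and none rose. FAD7 and FAD8, which desaturate chloroplast lipids to linolenic acid, were lower by 0.88 (SE 0.07, adjusted p = 1.5e-09) and 0.87 (SE 0.09, adjusted p = 5.72e-08). FAD7 had 368 and 373 CPM in Col-0 and 205 and 199 CPM in pnet2_ab. In the NTL9 line FAD8 rose against pnet2_ab by 0.69 (adjusted p = 3.27e-06) and FAD7 by 0.49 (adjusted p = 1.1e-05). Of 12 further genes for cyclases, reductases and beta-oxidation, 5 rose in pnet2_ab and none fell. AOC3, another cyclase, had 0.750 and 1.11 CPM in Col-0 and 5.58 and 3.30 CPM in pnet2_ab (2.24, adjusted p = 0.0011). It fell by 2.56 in the NTL9 line (adjusted p = 0.000574). OPR1, a relative of OPR3 outside the main route, rose by 0.63 in pnet2_ab (adjusted p = 0.000286), and OPCL1, which activates the precursor for beta-oxidation, rose by 0.67 in the NTL12 line (adjusted p = 6.5e-05) and 0.49 in the NTL6 line (adjusted p = 0.000564).

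Among 10 tested genes of conjugation, transport and turnover, 5 rose and 3 fell in pnet2_ab. The sulfotransferase gene ST2A, which sulfates hydroxylated jasmonate, had 1.5 and 1.96 CPM in Col-0 and 5.91 and 9.33 CPM in pnet2_ab (2.13, adjusted p = 7.41e-05), and fell by 2.40 in the NTL6 line (adjusted p = 5.46e-05) and 2.69 in the NTL9 line (adjusted p = 1.26e-05). CYP94B3, which hydroxylates the active conjugate, was at 0 in both Col-0 libraries and at 0.359 and 11.8 CPM in pnet2_ab. Its call there (adjusted p = 0.000213) was lost without the second pnet2_ab library (adjusted p = 0.0524). The pnet2_ab libraries thus lay far apart for CYP94B3, and the second was the higher one. The second was also the higher for every member except VSP1, which had 13.9 and 10.8 CPM. Among members the ratio was widest for VSP2, LOX4, LOX3 and LOX2. All 4 main comparisons share these pnet2_ab libraries.

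Of 10 regulators, 1 rose and 1 fell in pnet2_ab, and MYC2, the main transcription factor of the response, was not among them, with 41.3 and 30.4 CPM in Col-0 and 28.4 and 33.8 CPM in pnet2_ab (-0.21, adjusted p = 0.24; -0.43 and past the threshold without the second Col-0 library). The regulator that rose was TPL (0.39, adjusted p = 0.00112), and the one that fell was another MYC factor gene, MYC4 (-0.79, SE 0.18, adjusted p = 0.00175). Against pnet2_ab, MYC4 rose by 0.65 in the NTL6 line (adjusted p = 0.0149) and by 0.92 in the NTL9 line (adjusted p = 0.000608). MYC2 was higher in the NTL12 line, at 60.7 and 59.9 CPM, by 0.96 over pnet2_ab (SE 0.13, adjusted p = 4.12e-05). Of 11 tested JAZ repressors 3 rose and 2 fell in the mutant, JAZ1 by 1.33 (adjusted p = 1.47e-06) from 14.1 and 9.90 to 24.9 and 35.6 CPM, while TIFY7, also named JAZ9, fell by 0.94 (adjusted p = 0.000205). TIFY7 rose against pnet2_ab by 1.12 in the NTL9 line (adjusted p = 5.32e-05) and by 1.36 in the NTL12 line (adjusted p = 3.13e-05).

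Of 12 other response genes, 7 rose and 2 fell in pnet2_ab. NAC019, a NAC factor of the response, rose by 2.69 (adjusted p = 3.73e-07), from 1.60 and 1.47 to 8.87 and 11.0 CPM. CLH1, a jasmonate-induced chlorophyllase, and TPS03, a terpene synthase, fell by 0.67 (adjusted p = 1.34e-05) and 1.45 (adjusted p = 4.17e-07). CLH1 had 90.6 and 73.3 CPM in Col-0, 47.1 and 55.8 CPM in pnet2_ab, 137 and 142 CPM in the NTL6 line, 130 and 117 CPM in the NTL9 line, and 96.3 and 96.4 CPM in the NTL12 line. It was thus lowest in both pnet2_ab libraries, and rose against pnet2_ab by 1.44, 1.26 and 0.91 in the lines (adjusted p = 8.86e-10, 6.8e-09 and 4.85e-06). Against pnet2_ab, 3 of the 12 rose and 3 fell in the NTL6 line, 3 rose and 7 fell in the NTL9 line, and 3 rose and 2 fell in the NTL12 line. NAC019 fell by 1.84 in the NTL6 line (adjusted p = 5.24e-05) and by 1.60 in the NTL9 line (adjusted p = 0.000146), and MBP1 fell by 1.14 in the NTL12 line (adjusted p = 0.000196). CORI3, a coronatine-induced gene, rose by 1.07 in the NTL6 line (adjusted p = 1.1e-05).

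**Figure D4:**
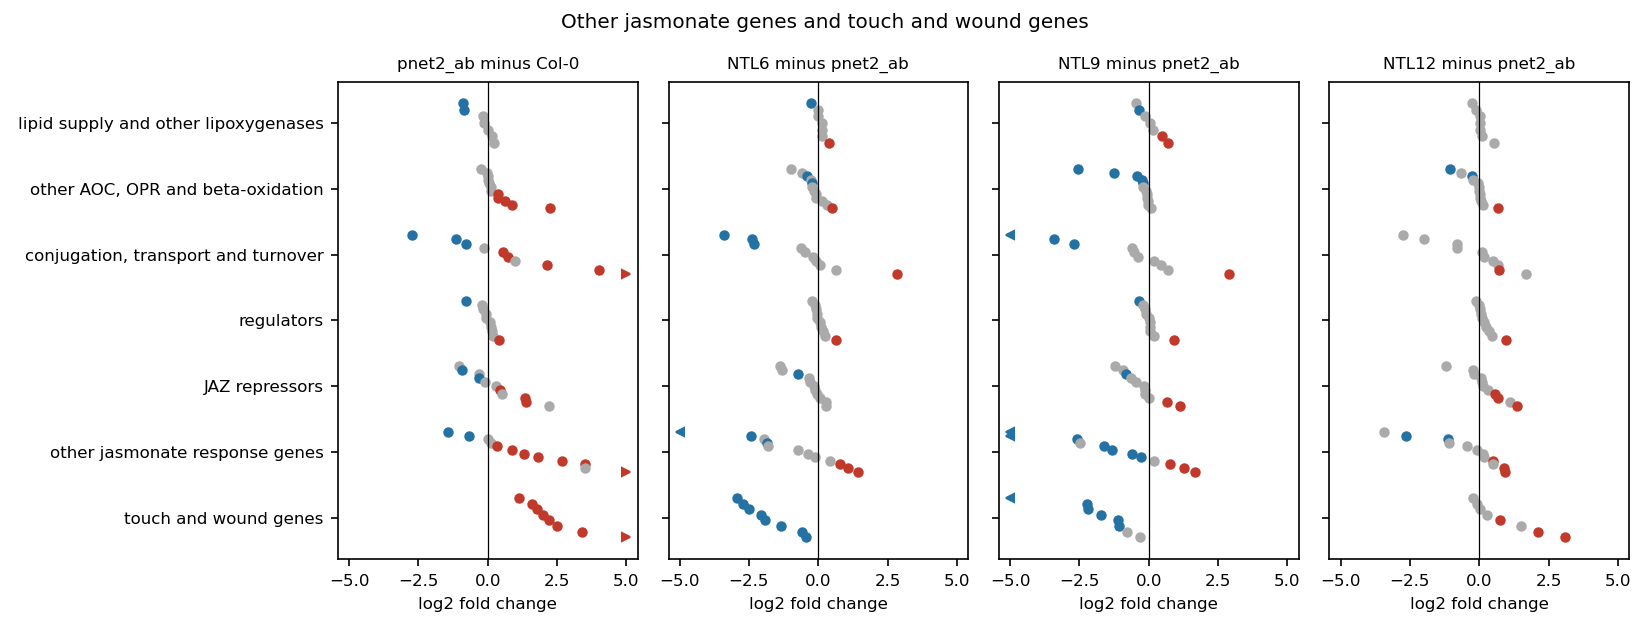
Fitted log2 fold change (x axis) of each tested gene of the 6 jasmonate lists and of the touch and wound list (y axis) in pnet2_ab against Col-0 and in each line against pnet2_ab; red and blue points passed an adjusted p of 0.05 as higher or lower, grey points did not, and arrowheads mark fitted values beyond 5 on either side. In the mutant 21 jasmonate genes were higher and 10 lower, and all 8 touch and wound genes were higher.

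Other gene groups were read beside the members, which themselves did not move one way. All 8 touch and wound genes, among them TCH2, TCH3, TCH4 and WRKY40, were higher in pnet2_ab than in Col-0, and their summed level was 72.5 and 75.7 CPM in Col-0, 221 and 288 CPM in pnet2_ab, 143 and 139 CPM in the NTL6 line, 132 and 115 CPM in the NTL9 line, and 323 and 335 CPM in the NTL12 line. RRTF1 was at 0 in both libraries of Col-0 and of the NTL9 line. Floral organ markers, of organs in which jasmonate genes are also active, summed to 2.70 and 2.81 CPM in Col-0, 17.1 and 11.0 CPM in pnet2_ab and 5.35 to 8.69 CPM in the lines, with 3 of 8 higher in pnet2_ab and AP1 at 0 in both libraries of Col-0, of the NTL9 line and of the NTL12 line. The largest part of the floral sum in pnet2_ab was SEP3, with a mean of 6.91 CPM, beside 0.932 CPM in Col-0 and 6.62 CPM in the NTL12 line. Means of the other floral markers in pnet2_ab were low, from 0.506 to 1.60 CPM. The AG mean was lower in pnet2_ab, at 0.506 against 0.821 CPM in Col-0. Leaf mesophyll markers summed to 70465 and 75661 CPM in Col-0 and 43976 and 45129 CPM in pnet2_ab, with 5 of 5 lower. Summed levels in Col-0 and pnet2_ab were 96.0 to 169 and 140 to 170 CPM for root markers, nearly all of it PYK10, 54.7 to 61.4 and 41.3 to 42.2 CPM for guard cell markers, 256 to 269 and 185 to 195 CPM for epidermis and trichome markers, and 321 to 328 and 301 CPM for phloem and vasculature markers. Clock genes, read because many jasmonate genes follow the time of day, summed to 698 and 727 CPM in Col-0 and 804 and 804 CPM in pnet2_ab, with 3 of 9 higher and none lower. Of all tested genes 34.0% passed in that comparison, 17.2% as higher and 16.8% as lower. Clock genes, at 33.3% called, and floral organ markers, at 37.5%, thus lay near the share of all genes there, though all these calls were as higher. Clock genes differed more in the NTL9 line. Against pnet2_ab 55.6% passed there, 2 as higher and 3 as lower, beside 22.3% of all genes. Against the NTL12 line 55.6% also passed, beside 16.3% of all genes. In the NTL6 and NTL12 lines against pnet2_ab, 22.2% and 0% of clock genes passed. The part of these groups in the changes of the members was not tested, and in leaf RNA fewer cells of a type and less RNA per cell cannot be told apart.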

How the data were processed

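Gene counts and FPKM values were deposited by the authors in separate tables, and coordinates were taken from the count table. Reads were handled with HISAT2 2.0.4 and HTSeq 0.6.1p1 on TAIR10, per the submitters' processing notes, and the libraries were strand-specific, per the labels' protocols; the strand setting of counting is not given in the sources used here. The authors' FPKM values served for levels per length and for limma. Counts of 33602 genes were filtered with filterByExpr and tested with edgeR 4.0.16 (TMM scaling, quasi-likelihood fit of all 10 libraries with 1 coefficient per genotype, Benjamini-Hochberg over 20334 genes, threshold 0.05) in R 4.3.3. SE was the log2 fold change divided by the root of F. Scripts were tested on simulated data. DESeq2 1.42.0 and limma 3.58.1 on log2(FPKM + 1) or log2(FPKM + 0.1) were alternatives, beside other scalings and filters, a fit of only the 2 groups compared, a replicate block and leaving out each library. Sequences came from RefSeq TAIR10.1 with Python 3.11.15 and Biopython 1.88; 32835 of 33602 IDs matched it. Members and lists were chosen with earlier results of these data known. All members were named in every comparison; of each jasmonate list, up to 3 genes with the smallest adjusted p and no overlap between groups were eligible in each of the 4 main comparisons. MYC2 in pnet2_ab, MLP28 and other likeness genes, and the touch, marker and PNET2 genes stand outside that list rule. Likeness was Pearson correlation of log2 CPM with a prior count of 2.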

Additional observations from a re-analysis of the deposited data

How the results depend on the processing

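Over 1900 values of single genes under 19 alternatives, 1727 kept their direction and their side of the threshold, 90 lost the call, 56 gained it and 27 changed sign. All 27 sign changes came on leaving out a library of a compared group, and in none did the value pass the threshold with or without it. Leaving out 1 library gave ranges that crossed 0 for these log2 values: in pnet2_ab against Col-0 LOX4 -0.11 to 0.85, in NTL6 against pnet2_ab LOX3 -0.57 to 0.20, LOX4 -0.22 to 0.74, in NTL9 against pnet2_ab LOX3 -0.23 to 0.54, LOX4 -0.58 to 0.39, OPR3 -0.0014 to 0.17, JAR1 -0.0296 to 0.22, in NTL12 against pnet2_ab JAR1 -0.067 to 0.18, VSP2 -0.21 to 0.91, in NTL6 against Col-0 VSP2 -0.081 to 0.61, in NTL9 against Col-0 LOX2 -0.16 to 0.13, AOC2 -0.11 to 0.013, VSP1 -0.18 to 0.59, VSP2 -0.83 to 0.092, in NTL12 against Col-0 LOX2 -0.11 to 0.18, in NTL6 against NTL12 AOS -0.094 to 0.0046, OPR3 -0.021 to 0.068, in NTL9 against NTL12 LOX2 -0.11 to 0.0025, AOC1 -0.10 to 0.072. Counts of members called moved by over 1.5 times under limma, with either pseudocount, to 3 (from 5) for NTL12 against pnet2_ab, 1 (from 2) for NTL9 against Col-0, 1 (from 2) for NTL6 against NTL9 and 3 (from 5) for NTL9 against NTL12. For NTL6 against NTL9 the count was also 6 with no low-count filter and 5 with only the 2 groups compared. Counts of other jasmonate genes moved to 13 with no filter and 5 under limma for NTL6 against NTL9 (from 8), and to 13 under limma for NTL9 against NTL12 (from 21). Leaving out 1 library moved the members' counts to 3 to 8 for NTL12 against pnet2_ab, 3 to 8 for NTL6 against Col-0, 1 to 2 for NTL9 against Col-0, 4 to 7 for NTL12 against Col-0, 1 to 4 for NTL6 against NTL9 and 2 to 6 for NTL9 against NTL12. It moved the counts of other jasmonate genes to 10 to 19 and 6 to 14 for NTL6 and NTL12 against pnet2_ab, 3 to 10 for NTL9 against Col-0, 4 to 9 for NTL6 against NTL9 and 10 to 17 for NTL6 against NTL12. The cause was not tested. Replicate numbers shared across genotypes only by number (correlations of deviations from -0.04 to 0.03); with them as a replicate block, 99 of 100 member results kept their call and VSP2 in NTL9 against NTL12 gained it (0.63, adjusted p = 0.0331, from 4.77e-06 to 0.793 over its alternatives). The block gave 7, 6, 5 and 5 members called in the 4 main comparisons. With 2 libraries per genotype, 1 library often decided a call.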
